A study of Mus musculus with 9 samples.

Results

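Intestinal identity transcription factors, the DNA-binding proteins that set and keep the fate of gut epithelial cells, were followed here through the genes *Cdx1*, *Cdx2*, *Hnf4a*, *Hnf4g*, *Klf4*, *Klf5*, *Elf3*, *Vdr* and *Nr1i2*. Their rows were taken from the deposited count table by gene symbol. All 9 symbols were found among 27719 rows with counts, and all 9 genes were among the 12566 kept for testing. The table holds raw counts of Oxford Nanopore reads of full-length cDNA, made from the colon RNA of 9 C57BL/6J mice with 1 library per mouse, 3 mice in each of 3 groups. Dextran sodium sulfate (DSS) in drinking water injures the colon epithelium and is used as a model of ulcerative colitis. The study compared DSS with water, and asked what electroacupuncture (EA), a weak current passed through acupuncture needles, changed in mice given DSS.

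The control group drank distilled water and was held in a frame for 30 minutes without EA. The DSS group drank 2.5% DSS for 7 days and was held in the same way. The DSS + EA group drank the same DSS and, after 5 days of modelling, received EA at the ST36 point of both hind limbs once a day for 5 days, each time for 30 minutes at 2 Hz and 0.2 mA. All mice were of the same strain and carried no engineered allele. Their ages are not given in the sources used here, nor is the stretch of colon that was taken. Libraries held between 2627695 and 4235576 counts. Values are given as CPM, read counts scaled by TMM to the same library total, and 3 counts corresponded to between 0.652 and 1.15 CPM depending on the library.

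CDX1 and CDX2 are homeobox proteins that specify intestinal rather than gastric epithelium. HNF4A and HNF4G are nuclear receptors that bind the same sites and drive the genes of the mature enterocyte and colonocyte, among them those of the brush border and of lipid handling. KLF4 and KLF5 are zinc finger proteins with opposed roles along the crypt, KLF5 in dividing cells and KLF4 in cells that leave the cell cycle and in goblet cells. ELF3 is an epithelium-specific ETS factor needed for epithelial differentiation, VDR is the receptor for the active form of vitamin D, and *Nr1i2* encodes PXR, a receptor for foreign compounds and microbial metabolites that switches on detoxification genes.

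Promoter sequence is shown for *Hnf4a* and *Nr1i2*, since these had the most similar profiles of any members over the 9 mice. The RefSeq promoter table (GRCm38.p6), which gives 300 bases around each start site, held 7 promoters for 6 of the 9 genes, *Hnf4a* having 2. Each line below gives the 150 bases before the start site, 5′ to 3′ on the strand of the gene, with no letters in capitals, since the motifs named after the sequences were not found in them. The *Hnf4a* line is its downstream promoter, chr2:163547005-163547154 on the plus strand, 40347 bases into the annotated gene. The *Nr1i2* line is chr16:38294825-38294974 on the minus strand.
Hnf4a: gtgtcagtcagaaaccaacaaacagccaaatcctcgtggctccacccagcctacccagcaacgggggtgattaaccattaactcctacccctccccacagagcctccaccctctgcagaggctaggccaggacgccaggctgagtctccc
Nr1i2: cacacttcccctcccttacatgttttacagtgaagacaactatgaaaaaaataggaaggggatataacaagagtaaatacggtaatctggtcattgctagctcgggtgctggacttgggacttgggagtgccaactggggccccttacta

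A CDX motif (CCATAAA), an HNF4 motif (CAAAGTCCA), a KLF motif (CCACACCC) and an ETS motif of the ELF3 type (CAGGAAGT), each searched on both strands, were in 0 of the 7 promoters of these genes and in 2.75%, 0.475%, 3.56% and 3.33% of all 32851 promoters of the table. This says only that these letters are not in these 300 bases, and binding was not measured.

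Compared with the control group, 6 of the 9 factors fell in the DSS group at an adjusted p under 0.05, namely *Cdx2*, *Hnf4a*, *Hnf4g*, *Elf3*, *Vdr* and *Nr1i2*. Among all genes tested, 19.5% were called lower in that comparison. The median log2 fold change was -2.08 over the 9 genes and 0.02 over all genes tested, and all 9 had a fold change below 0. All 3 DSS mice lay below all 3 control mice for 7 of the genes, the 6 above and *Klf5*, against 25.9% of all genes tested. By the rule the study used for a DEG, a log2 fold change beyond 2.5 and an unadjusted P under 0.01, only *Hnf4g* was a DEG among the 9, where 3.57% of all genes were lower DEGs.

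**Figure D1:**
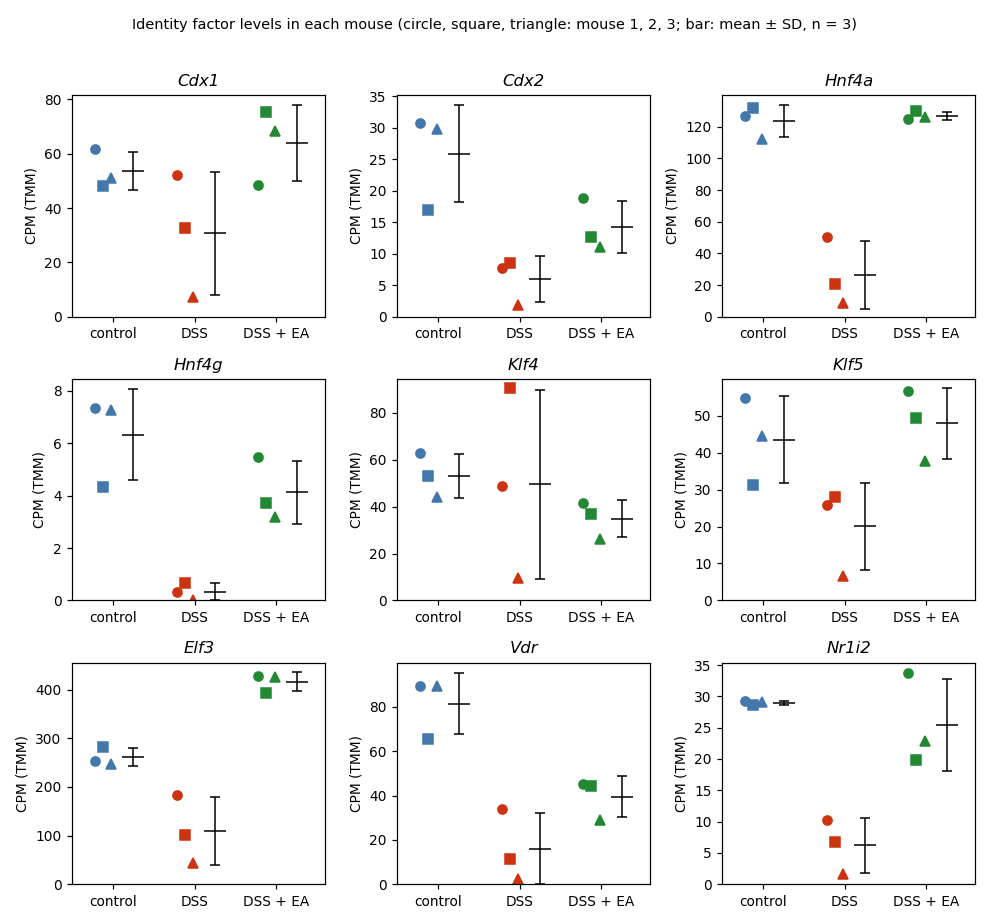
Level of each of the 9 factors in CPM (vertical axis, linear, starting at 0) in every mouse, by group (horizontal axis). Coloured symbols are single mice, and the black bar is the mean with its SD (n = 3), drawn no lower than 0. DSS mouse 3 (triangle) was the lowest of its group for all 9 genes.

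Between the DSS + EA and DSS groups, 4 of the 9 factors rose with EA, *Hnf4a*, *Hnf4g*, *Elf3* and *Nr1i2*, where 17.2% of all genes tested were called higher. The median log2 fold change was 1.33 over the 9 genes and -0.02 over all genes. All 3 DSS + EA mice lay above all 3 DSS mice for 6 of the genes, these 4 with *Cdx2* and *Klf5*, against 24.2% of all genes, and *Hnf4g* was the only DEG, against 2.91%. Both comparisons used the same 3 DSS mice, so a low DSS value moved them in opposite directions, and the values are given side by side for that reason. Compared with the control group, 0 of the 9 factors differed in the DSS + EA group in edgeR's fit or by DESeq2, and 0 had an unadjusted p under 0.05, where 3.64% of all genes were called in either direction. Their adjusted p-values in that comparison lay between 0.359 and 0.979 (edgeR).

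**Figure D2:**
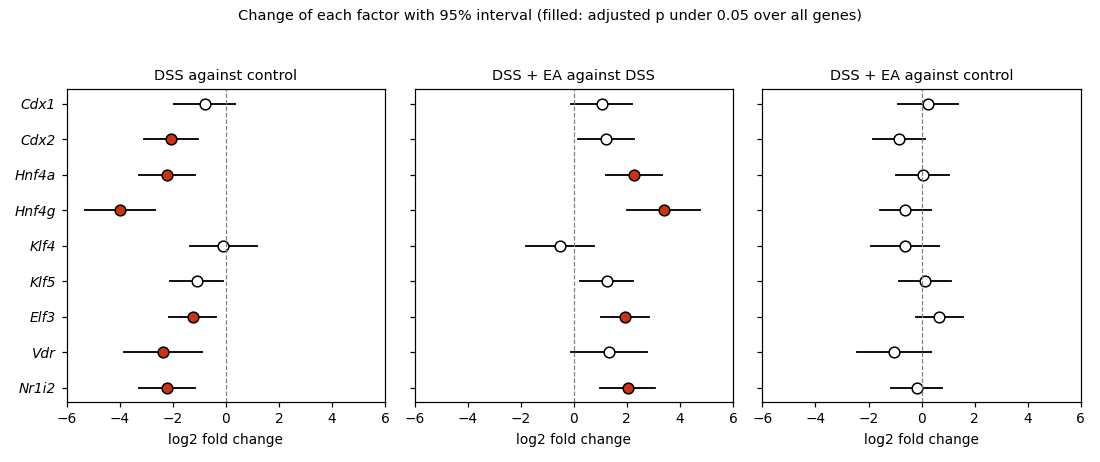
Log2 fold change of each factor (horizontal axis) with its 95% confidence interval in the 3 comparisons, from the edgeR fit. Filled points have an adjusted p under 0.05 over all 12566 genes tested: 6 in DSS against control, 4 in DSS + EA against DSS and 0 in DSS + EA against control.

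The mice of the DSS group differed more among themselves than those of the other groups. The coefficient of variation of the 9 genes lay between 58.7% and 104% in the DSS group, between 1.17% and 29.9% in the control group and between 2.06% and 29.1% in the DSS + EA group. DSS mouse 3 was the lowest of its group for all 9 genes. Markers of the epithelium were also lowest in that mouse. The summed level of 10 pan-epithelial markers was 11970 CPM in DSS mouse 1, 4929 in mouse 2 and 2864 in mouse 3, against 12540 to 14050 in the control and 11480 to 12620 in the DSS + EA mice. *Lgals4* was the largest part of each sum, with 19991 counts in DSS mouse 1 next to 3801 for *Krt8*. By the mean log2 CPM of the same markers, DSS mice 1, 2 and 3 were at 0.735, 0.375 and 0.189 of the control mean. In bulk tissue, fewer epithelial cells and less RNA per epithelial cell cannot be told apart.

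Markers of other cells were higher or lower with DSS depending on the cell type. All 7 fibroblast markers were called higher with DSS, and their summed level was between 760 and 828 CPM in the control, 4100 and 6819 in the DSS and 1621 and 1709 in the DSS + EA mice. The 7 neutrophil markers, of which 6 were tested and 6 called higher with DSS, summed to between 22.6 and 159 CPM in the control, 4421 and 26330 in the DSS, and 1190 and 1586 in the DSS + EA mice. Of the macrophage markers, 6 of 8 were called higher with DSS (277 to 344, 992 to 1743 and 613 to 821 CPM in the same order), and of the endothelial markers 4 of 6 (44.5 to 52.2, 112 to 170 and 54.9 to 62.2 CPM). All 7 goblet cell markers, 6 of 8 colonocyte markers and all 6 smooth muscle markers were called lower with DSS. In the same order of groups, goblet markers summed to 18240 to 24640, 860 to 6541 and 15820 to 17830 CPM. Colonocyte markers summed to 14540 to 33420, 1204 to 7754 and 10820 to 18890 CPM. In DSS + EA against DSS, 5 goblet, 6 colonocyte and 2 smooth muscle markers were called higher and 0 lower. Of 8 lymphocyte markers 5 were tested and 1 was called lower with DSS. At an unadjusted p under 0.05, 1 was higher and 2 were lower (edgeR). Their summed level was between 1428 and 2749 CPM in the control, 143 and 406 in the DSS and 393 and 741 in the DSS + EA mice. Most of these counts were *Jchain*, and each of the other markers had at most 104 counts in any mouse. The T cell marker *Cd3d* had 15, 7 and 14 counts in the control and 12, 40 and 30 in the DSS mice. The part of these shifts in the changes of the 9 factors was not tested. DSS + EA mice 2 and 3 also held pancreatic acinar enzymes at 29350 and 14540 CPM in sum, against 518 CPM in DSS + EA mouse 1 and at most 262 CPM in any control or DSS mouse. In the control and DSS mice most of these counts were *Cela1*. Each of the other enzymes listed had at most 5 counts in any control or DSS mouse and at least 46 in DSS + EA mouse 1. Their RNA was thus higher in every DSS + EA mouse, and it cannot be told apart from the group.

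**Figure D3:**
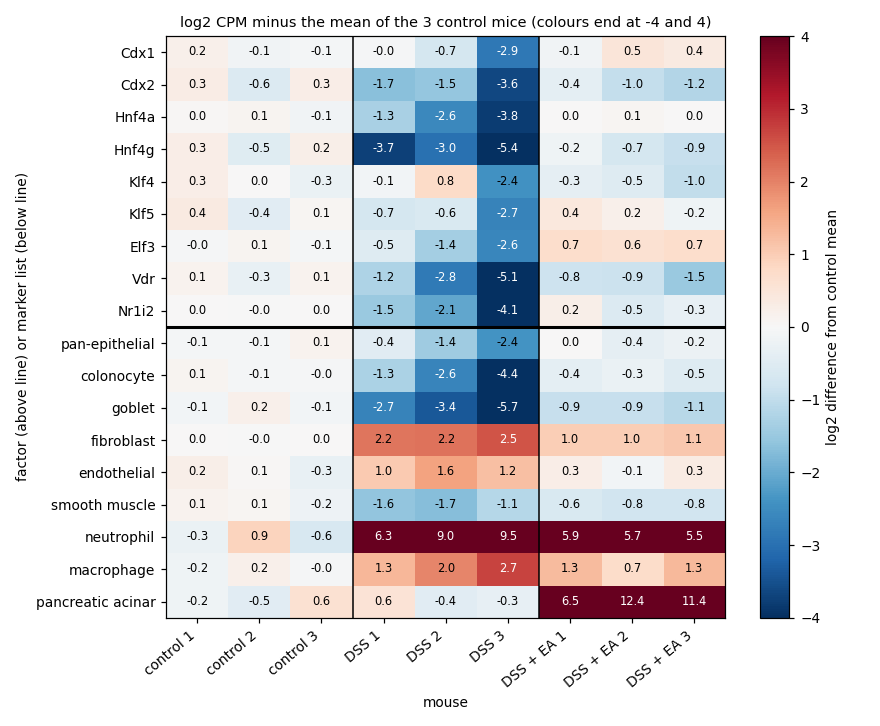
Difference of each mouse (columns) from the mean of the 3 control mice in log2 CPM, for each of the 9 factors (rows above the line) and for the mean of each marker list (rows below it). Blue is lower and red higher than control, and the number in each cell is the log2 difference. In DSS mouse 3 the factors lay between -2.43 and -5.37, and the pan-epithelial, colonocyte and goblet lists at -2.40, -4.39 and -5.75.

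*Cdx1* (chr18:61018862-61036199, minus strand, 3 exons) was at the control level in 1 DSS mouse and low in another. Its levels were 61.8, 48.2 and 51.0 CPM in the control mice, 52.1, 32.8 and 7.18 CPM in the DSS mice, and 48.4, 75.5 and 68.2 CPM in the DSS + EA mice. DSS mouse 1 lay within the control range, DSS mouse 3 had 13.4% of the control mean, and the DSS and DSS + EA groups overlapped. The log2 fold change was -0.81 (SE, standard error, 0.51, adjusted p = 0.234, edgeR) in DSS against control and 1.06 (SE 0.51, adjusted p = 0.132) in DSS + EA against DSS. Without DSS mouse 1 both passed the threshold, at -1.42 and 1.68 (adjusted p = 0.0396 and 0.0224, edgeR).

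*Cdx2* (chr5:147300805-147307270, minus strand, 3 exons) fell in all DSS mice and lay between the other groups in the EA mice. Its levels were 30.8, 17.0 and 29.9 CPM in the control mice, 7.72, 8.47 and 1.87 CPM in the DSS mice, and 18.9, 12.7 and 11.1 CPM in the DSS + EA mice. The DSS mice lay below both other groups without overlap, and DSS + EA mouse 1 alone reached into the control range. The fall with DSS was 2.08 on the log2 scale (log2 fold change -2.08, SE 0.46, adjusted p = 0.00611, edgeR). The difference between DSS + EA and DSS was 1.22 (SE 0.47, adjusted p = 0.0666, edgeR), which passed the threshold by DESeq2 and without a filter on low counts, and DSS + EA against control gave -0.86 with a 95% interval from -1.83 to 0.11 (adjusted p = 0.359, edgeR).

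The ratio of the homeobox genes was higher in every DSS mouse than in any control mouse. On the log2 scale, *Cdx1* minus *Cdx2* was 1.09 ± 0.37 (SD, n = 3) in the control, 2.17 ± 0.48 in the DSS and 2.17 ± 0.71 in the DSS + EA group. The DSS mice (2.73, 1.93 and 1.86) all lay above the control mice (1.00, 1.50 and 0.77), a difference of 1.08 with an exact two-sided permutation p of 0.1, the smallest that 3 mice against 3 allow. In the DSS + EA mice the ratio was 1.35, 2.56 and 2.60, which overlapped with the control range.

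*Hnf4a* (chr2:163506808-163572910, plus strand, 10 exons in its longest transcript) fell in every DSS mouse and was at the control level in the EA mice. Its levels were 127, 132 and 112 CPM in the control mice, 50.5, 20.4 and 8.74 CPM in the DSS mice, and 125, 130 and 126 CPM in the DSS + EA mice. The DSS mice held 40.9%, 16.5% and 7.08% of the control mean, with no overlap with either other group, while the DSS + EA mice all lay inside the control range. The log2 fold change was -2.22 (SE 0.48, adjusted p = 0.00509, edgeR) with DSS and 2.26 (SE 0.48, adjusted p = 0.00624, edgeR) in DSS + EA against DSS. In DSS + EA against control it was 0.04, with a 95% interval from -0.96 to 1.04 (adjusted p = 0.979, edgeR). DSS + EA mouse 1 had 125 CPM, next to 130 and 126 CPM in mice 2 and 3, which held more pancreatic counts. Every DSS + EA mouse held such counts, and their part in the *Hnf4a* level was not tested.

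*Hnf4g* (chr3:3508030-3658052, plus strand, 10 exons in its longest transcript) was near the limit of detection after DSS. Its reads numbered 29, 13 and 19 in the control mice, 1, 3 and 0 with DSS alone, and 18, 10 and 10 with DSS + EA. In the same order these were 7.37, 4.32 and 7.28 CPM, 0.322, 0.652 and 0 CPM, and 5.48, 3.74 and 3.17 CPM. Every DSS mouse lay below every other mouse. Over the group, 61 control counts against 4 DSS counts gave a 17.4-fold ratio with an exact 95% interval from 6.47 to 66, and 38 DSS + EA counts gave an 11.4-fold ratio with an interval from 4.10 to 43.9. Both intervals cover counting error only. *Hnf4g* passed the test in both comparisons (adjusted p = 0.000764 and 0.00325, edgeR). When only the DSS and DSS + EA mice were fitted, it was not among the genes tested. Its call in DSS + EA against DSS thus rests on a low-count filter that it passed with the control mice present. The *Hnf4a* to *Hnf4g* ratio could not be followed in these mice, since its log2 difference of 1.47 between the DSS and control groups became 0.40 with a prior count of 2 in place of 0.5.

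*Klf4* (chr4:55527143-55532466, minus strand, 5 exons in its longest transcript) lay on both sides of the control range in the DSS mice. Its levels were 62.8, 52.9 and 44.1 CPM in the control mice, 48.6, 90.4 and 9.68 CPM in the DSS mice, and 41.4, 37.0 and 26.3 CPM in the DSS + EA mice. DSS mouse 2 was the highest and DSS mouse 3 the lowest of all 9 mice, and the DSS + EA mice all lay below the control mice. None of its comparisons passed the test, with log2 fold changes of -0.10 (SE 0.57, adjusted p = 0.906) with DSS, -0.51 (SE 0.58, adjusted p = 0.508) in DSS + EA against DSS and -0.61 (SE 0.58, adjusted p = 0.643) in DSS + EA against control, all by edgeR. Without DSS mouse 3 the difference between DSS + EA and DSS was -0.99 and passed it (adjusted p = 0.0376, edgeR), and without DSS mouse 2 it was 0.26, on the other side of 0.

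*Klf5* (chr14:99298691-99315036, plus strand, 4 exons in its longest transcript) was lower in the DSS mice without reaching the threshold. Its levels were 54.9, 31.3 and 44.5 CPM in the control mice, 25.7, 28.0 and 6.55 CPM in the DSS mice, and 56.6, 49.3 and 37.8 CPM in the DSS + EA mice. All 3 DSS mice lay below all other mice, and the control and DSS + EA groups overlapped. The log2 fold change was -1.11 (SE 0.45, adjusted p = 0.0712, edgeR) with DSS and 1.24 (SE 0.45, adjusted p = 0.0530, edgeR) in DSS + EA against DSS. Both passed the threshold by DESeq2 and without a filter on low counts, and the latter also without DSS mouse 1 (1.47, adjusted p = 0.0392, edgeR).

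The balance of these zinc finger genes was lower in every DSS + EA mouse than in any other mouse. *Klf4* minus *Klf5* on the log2 scale was 0.19, 0.76 and -0.01 in the control mice, 0.91, 1.68 and 0.55 in the DSS mice, and -0.45, -0.41 and -0.52 in the DSS + EA mice. The group means differed by -1.51 in DSS + EA against DSS and -0.77 in DSS + EA against control, each with an exact two-sided permutation p of 0.1, the smallest possible. Between the DSS and control groups the ratio differed by 0.74, and the mice overlapped (exact permutation p = 0.2).

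*Elf3* (chr1:135253575-135258568, minus strand, 9 exons in its longest transcript) fell with DSS and was higher with EA than in any control mouse. Its levels were 254, 283 and 247 CPM in the control mice, 183, 102 and 42.8 CPM in the DSS mice, and 429, 394 and 426 CPM in the DSS + EA mice. The groups did not overlap in any comparison, and the DSS + EA mice held 151% to 164% of the control mean. The log2 fold change was -1.26 (SE 0.40, adjusted p = 0.0302, edgeR) with DSS and 1.93 (SE 0.41, adjusted p = 0.00633, edgeR) in DSS + EA against DSS. The call with DSS was lost without any 1 of the control mice (adjusted p between 0.0598 and 0.0756, edgeR) and without DSS mouse 2 (-1.20, adjusted p = 0.0858, edgeR). It was also lost when only the control and DSS mice were fitted (-1.24, adjusted p = 0.0677, edgeR) and without both DSS + EA mice rich in pancreatic enzymes (-1.29, adjusted p = 0.0592, edgeR). Set against control, the DSS + EA group gave 0.67, with a 95% interval from -0.21 to 1.55, which did not pass the test over the 9 libraries (adjusted p = 0.436, edgeR) and passed it when only those 6 mice were fitted (0.68, adjusted p = 0.00861, edgeR). An annotated gene on the opposite strand, *Gm26642*, shares 162 exon bases with *Elf3* and has no row of its own in the table, so its reads cannot be told apart from those of *Elf3*, since the use of strand is not given in the sources used here.

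*Vdr* (chr15:97854425-97910630, minus strand, 10 exons in its longest transcript) fell with DSS, and every EA mouse lay below every control mouse. Its levels were 89.5, 65.5 and 89.3 CPM in the control mice, 34.1, 11.3 and 2.19 CPM in the DSS mice, and 45.4, 44.5 and 28.9 CPM in the DSS + EA mice. The DSS mice lay below the control mice too, and DSS mouse 1 lay above DSS + EA mouse 3. The log2 fold change with DSS was -2.37 (SE 0.66, adjusted p = 0.0168, edgeR), and the call was lost without DSS mouse 2 (-2.16, adjusted p = 0.0617, edgeR). The DSS + EA group against DSS gave 1.33 (SE 0.65, adjusted p = 0.133, edgeR), which became 2.51 and passed the test without DSS mouse 1 (adjusted p = 0.00416, edgeR). Against control it gave -1.04, with a 95% interval from -2.43 to 0.35 (adjusted p = 0.444, edgeR), and passed the test when only those 6 mice were fitted (adjusted p = 0.0188, edgeR).

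*Nr1i2* (chr16:38248323-38294824, minus strand, 9 exons) had nearly the same level in all control mice and fell in every DSS mouse. Its levels were 29.2, 28.6 and 29.1 CPM in the control mice, 10.3, 6.74 and 1.56 CPM in the DSS mice, and 33.8, 19.8 and 22.8 CPM in the DSS + EA mice. The DSS mice held 35.5%, 23.2% and 5.38% of the control mean and did not overlap with either other group. The log2 fold change was -2.22 (SE 0.47, adjusted p = 0.00477, edgeR) with DSS and 2.03 (SE 0.47, adjusted p = 0.00923, edgeR) in DSS + EA against DSS. Between DSS + EA and control it was -0.18, with a 95% interval from -1.14 to 0.77 (adjusted p = 0.875, edgeR).

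To set the factors against the amount of epithelial RNA, the mean log2 CPM of the 10 pan-epithelial markers, keratins, claudins and surface proteins of all gut epithelial cells such as *Epcam*, *Krt8* and *Cldn7*, was taken from the log2 CPM of each factor in each mouse. Relative to these markers, 4 of the 9 factors did not overlap between the DSS and control mice: *Hnf4a*, *Hnf4g*, *Vdr* and *Nr1i2*. All 4 were lower with DSS and 0 were higher. Of all genes tested, 58.8% did not overlap between these groups on this scale, in either direction, a share that 4 of the 9 did not exceed. For each of these 4 factors the exact two-sided permutation p was 0.1, the smallest possible. The differences on the log2 scale were -1.14 for *Hnf4a*, -1.13 for *Nr1i2*, -1.64 for *Vdr* and -2.61 for *Hnf4g*, the last resting on 4 DSS counts. *Elf3* was level with the markers in the DSS group, at -1.76 ± 0.13 (SD, n = 3) against -1.69 ± 0.21 in the control group. *Cdx1* and *Klf5* differed by 0.22 and 0.09, and *Cdx2* by -0.87 and *Klf4* by 0.83, with overlap in each of the 4.

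**Figure D4:**
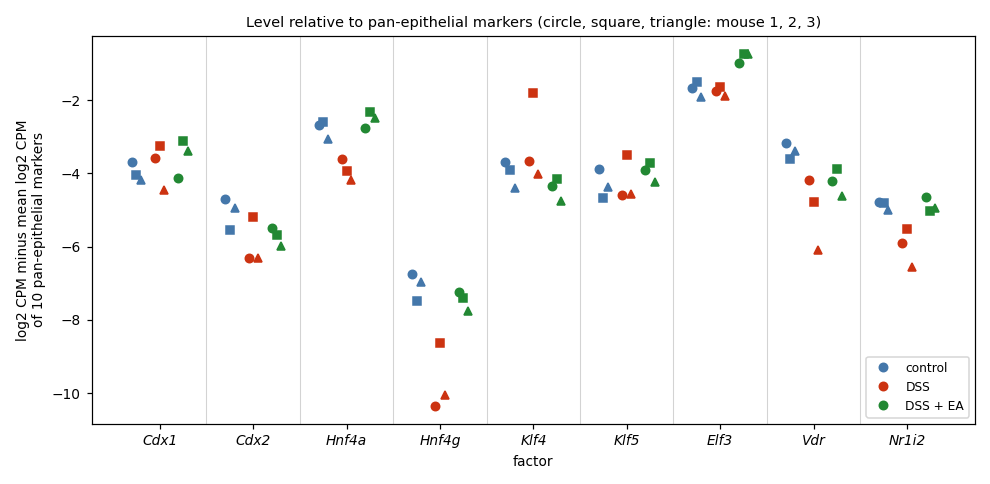
Level of each factor relative to the mean of 10 pan-epithelial markers (vertical axis, log2 CPM difference) in the control (blue), DSS (red) and DSS + EA (green) mice. The DSS mice lay below the control mice without overlap for Hnf4a, Hnf4g, Vdr and Nr1i2, and the DSS + EA mice lay above all others for Elf3. Of all genes tested, 58.8% did not overlap in DSS against control on this scale, in either direction. The shares were 48.2% in DSS + EA against DSS and 29.7% in DSS + EA against control.

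On the same scale, DSS + EA against DSS separated 5 of the 9 factors, where 48.2% of all genes did not overlap. *Hnf4a* was higher by 1.38, *Hnf4g* by 2.21, *Nr1i2* by 1.11 and *Elf3* by 0.95, and *Klf4* was lower by 1.25. Between the DSS + EA and control groups 2 of the 9 did not overlap, against 29.7% of all genes: *Elf3* was higher by 0.88 (-0.98, -0.73 and -0.74 against -1.67, -1.50 and -1.91 in the control mice), and *Vdr* was lower by 0.85 (-4.22, -3.87 and -4.62 against -3.17, -3.61 and -3.38). That count became 4 without control mouse 2 and 5 without DSS + EA mouse 1. *Epcam*, one of the markers in the reference, had 2750 counts in DSS + EA mouse 1 against 489 and 466 in mice 2 and 3. Its part in that change was not tested. On the scale of CPM, 3 of the factors did not overlap between these groups, *Elf3* higher and *Klf4* and *Vdr* lower, against 32.2% of all genes.

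Other transcription factors of gut epithelium moved in both directions. Of 26 listed, 24 were tested, and 10 were lower and 2 higher with DSS, against 19.5% lower and 21.5% higher of all genes tested. *Foxa3*, a forkhead factor of endoderm, had the smallest P and went from 24.7 ± 5.55 CPM (SD, n = 3) in the control to 2.14 ± 0.967 in the DSS and 14.1 ± 2.29 in the DSS + EA group, a log2 fold change of -3.45 with DSS (SE 0.34, adjusted p = 0.000103, edgeR). *Nr1h3*, which encodes the oxysterol receptor LXR alpha, had a log2 fold change of -1.80 (adjusted p = 0.000313, edgeR), and *Ppargc1a*, a coactivator of mitochondrial genes, one of -2.36 (adjusted p = 0.00438, edgeR). The 2 that rose were *Klf6* (1.62, adjusted p = 0.00876, edgeR) and *Prdm1* (1.83, adjusted p = 0.0210), both of which are also made by leukocytes, and they are named because of their direction. With EA against DSS alone, 7 were higher and 1, *Klf6*, was lower, against 17.2% higher and 18.3% lower of all genes. The higher ones with the smallest P were *Nr1h3* (1.83, adjusted p = 0.000598), *Foxa3* (2.64, adjusted p = 0.000752), the ETS factor *Ehf* (1.26, adjusted p = 0.00590) and *Isx* (2.97, adjusted p = 0.00590), a homeobox repressor of vitamin A uptake.

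Partners and cofactors of the nuclear receptors, listed together with the hydroxylase genes *Cyp2r1*, *Cyp27a1* and *Cyp27b1*, were higher or not called with DSS. Of 12 listed, 9 were tested, and 2 were higher and 0 lower with DSS. Among all genes tested, 21.5% were called higher and 19.5% lower, and whether the list differs from that was not tested. The 2 were the coactivators *Ncoa1* (1.25, adjusted p = 0.00807, edgeR) and *Ncoa3* (1.06, adjusted p = 0.0359, edgeR). Also 0 were lower at an unadjusted p under 0.05 and by DESeq2, which called 1 higher. *Rxra*, the shared dimer partner of VDR and PXR, had 13.9 ± 3.15 CPM (SD, n = 3) in the control, 15.7 ± 6.33 in the DSS and 11.4 ± 4.08 in the DSS + EA group (log2 fold change with DSS 0.17, SE 0.37, adjusted p = 0.741, edgeR), and was singled out for that role. With EA, *Ncoa3* was lower than in the DSS group (-1.17, adjusted p = 0.0291, edgeR), a call that DESeq2 did not make.

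Genes known as targets of VDR were mostly too low to follow. Of 9 listed, 4 were tested, and 3 were lower and 0 higher with DSS, against 19.5% lower and 21.5% higher of all genes tested. With EA, 2 were higher than in the DSS group and 0 lower, against 17.2% and 18.3% of all genes. *Cyp24a1*, which encodes the enzyme that breaks down active vitamin D, and *Trpv5* had 0 counts in all 9 mice, and *Trpv6* had at most 5. *S100g*, a calcium-binding protein, went from 63.4 ± 61.5 CPM (SD, n = 3) in the control to 0.788 ± 1.01 in the DSS and 26.7 ± 28.7 in the DSS + EA group, and passed the test in both comparisons (adjusted p = 0.00377 and 0.0133, edgeR). *Cldn2*, a pore-forming claudin, fell by 1.50 on the log2 scale with DSS and was 1.92 higher with EA than without (adjusted p = 0.0133 and 0.00578, edgeR). *Atp2b1*, a calcium pump, fell by 0.62 with DSS (adjusted p = 0.0252), and its difference between DSS + EA and DSS was -0.09 (adjusted p = 0.724, edgeR). *Cldn12* was not called, at 0.39 with DSS and 0.33 in DSS + EA against DSS (adjusted p = 0.377 and 0.456, edgeR).

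Most of the tested targets of PXR fell with DSS. Of 14 listed, 10 were tested, and 7 were lower and 1 higher with DSS, against 19.5% lower and 21.5% higher of all genes tested. With EA, 5 were higher than in the DSS group and 0 lower, against 17.2% and 18.3% of all genes. In that comparison 0 were lower also at an unadjusted p under 0.05 and by DESeq2. *Gstm1*, a glutathione transferase, fell by 1.23 on the log2 scale (212 ± 8.56 CPM in the control and 90.6 ± 26.8 in the DSS group, SD, n = 3, adjusted p = 0.00292, edgeR). The efflux pump *Abcc3* had a log2 fold change of -1.06 (adjusted p = 0.00634, edgeR), and the carboxylesterases *Ces2c* and *Ces2a* had -2.95 and -3.57 (adjusted p = 0.00721 and 0.0173, edgeR). The gene that rose, *Por*, encodes the reductase that feeds electrons to cytochrome P450 enzymes (0.81, adjusted p = 0.0380). With EA, *Ces2c* (2.34, adjusted p = 0.0222), *Ces2a* (3.29, adjusted p = 0.0274), *Cyp3a13* (2.57, adjusted p = 0.0337) and *Aldh1a1* (1.48, adjusted p = 0.0397) had the smallest P among those higher than in the DSS group (edgeR). *Ces2a*, *Ces2c*, *Gstm1* and *Cyp3a13* belong to families of similar copies, and their reads may have been shared out among them.

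Genes of the brush border and other targets of HNF4 and CDX proteins were lower or not called with DSS. Of 20 listed, 17 were tested, and 10 were lower and 0 higher with DSS, with a median log2 fold change of -1.80. Among all genes tested, 19.5% were lower and 21.5% higher. With EA, 8 were higher than in the DSS group and 0 lower, with a median of 1.99, against 17.2% higher and 18.3% lower of all genes. In either comparison 0 moved the other way at an unadjusted p under 0.05 or by DESeq2, which called 10 lower and 12 higher. *Espn*, an actin bundler of microvilli, fell by 3.57 on the log2 scale (108 ± 21.4 CPM in the control, 9.16 ± 9.53 in the DSS and 64.0 ± 12.3 in the DSS + EA group, SD, n = 3, adjusted p = 0.00159, edgeR). *Vil1*, which encodes villin, had a log2 fold change of -1.88, the surface antigen *Gpa33* of -1.64 and the microvillar cadherin *Cdhr5* of -2.31 (adjusted p = 0.00432, 0.00439 and 0.00485, edgeR). The 4 genes *Espn*, *Vil1*, *Gpa33* and *Cdhr5* also had the smallest P between DSS + EA and DSS, and were higher by 2.82, 1.99, 1.79 and 2.04 (adjusted p = 0.00647, 0.00459, 0.00405 and 0.0105, edgeR). The 7 not called with DSS included *Cdh17*, a cadherin controlled by CDX2, at 208 ± 57.7 CPM in the control, 150 ± 140 in the DSS and 304 ± 28.3 in the DSS + EA group (SD, n = 3, log2 fold change with DSS -0.47, adjusted p = 0.498, edgeR), which is named because it is a classic CDX2 target.

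Among 6 genes known as targets of KLF and ELF3 proteins, all tested, 1 was higher and 2 lower with DSS. Among all genes tested, 21.5% were higher and 19.5% lower. *Tgfbr2*, the TGF beta receptor that ELF3 induces in gut epithelium and that fibroblasts also make, rose by 1.88 with DSS (18.9 ± 2.08 CPM in the control and 69.5 ± 20.9 in the DSS group, SD, n = 3, adjusted p = 0.000636, edgeR) and was 1.46 lower in DSS + EA against DSS (adjusted p = 0.00312). *Alpi*, intestinal alkaline phosphatase, had 6.63 ± 3.77 CPM in the control, 0.753 ± 0.809 in the DSS and 7.76 ± 2.33 in the DSS + EA group (SD, n = 3) and passed the test in both comparisons (adjusted p = 0.00737 and 0.00644, edgeR). *Pdgfa* fell by 1.14 with DSS (adjusted p = 0.0455), and the cyclin *Ccnd1*, a KLF5 target in crypt cells, was 1.17 higher with EA than without (adjusted p = 0.0286, edgeR). Between DSS + EA and control, 0 genes of these 6 lists of transcription factors, cofactors and targets passed the test in edgeR's fit, against 3.64% of all genes tested. Of these lists, 4 genes had an unadjusted p under 0.05, and DESeq2 called 1. With so few calls over all genes, this does not show that the listed genes were at the control level.

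The genes whose profiles over the 9 libraries lay closest to each factor were found as the root mean square difference of centred log2 CPM, among 8875 genes with a mean of at least 20 counts. This is a description of levels in libraries that differed in their epithelial marker level, and the part of that level in the profiles was not tested. For *Hnf4a* they were *Tm4sf20* (0.147), *Tmc4* (0.154) and *Car4* (0.168), the last a carbonic anhydrase of the colonocyte surface, and its own standard deviation over the libraries was 1.35. *Elf3* lay closest to *B3galt5* (0.147), *Heph* (0.203), an iron oxidase, and *Lypd8* (0.238), a protein that keeps bacteria off the colon surface. *Lypd8* shared the high level in the EA mice, with 6787, 6844 and 8709 CPM in the control, 7279, 2583 and 1495 CPM in the DSS, and 14772, 13083 and 15182 CPM in the DSS + EA mice.

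For *Nr1i2* the closest were *Cog6* (0.221), *Grb7* (0.231) and *Tmem184a* (0.273), and for *Vdr* they were *Cyp2s1* (0.292), *Prkcz* (0.326) and *Gal3st1* (0.328). *Hnf4g* lay closest to *Gstm3* (0.432) and *Spdef* (0.440), a factor of goblet cells, at a wider distance than any other of the 9. *Cdx1* was closest to *Capn5* (0.246), *Cdx2* to *St3gal3* (0.284), *Klf4* to *Slc35g1* (0.275) and *Klf5* to *Atp1b1* (0.254). Among the 9 themselves, *Hnf4a* and *Nr1i2* were each other's nearest (0.318), as were *Cdx1* and *Klf5* (0.375), and the nearest to *Klf4*, *Klf5*, lay at 0.700.

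Without DSS mouse 2, the number of factors called lower with DSS went from 6 to 4, *Elf3* and *Vdr* being lost, and the share of all genes called lower from 19.5% to 15.3%. Without DSS mouse 1, the number called higher in DSS + EA against DSS went from 4 to 7, *Cdx1*, *Klf5* and *Vdr* being gained, and the share of all genes called higher from 17.2% to 22.9%. When both DSS + EA mice rich in pancreatic enzymes were left out, a fit chosen after seeing the data that leaves a lone DSS + EA mouse assumed to vary like the other groups, only *Hnf4g* was still called in DSS + EA against DSS (adjusted p = 0.0364, edgeR), and 3.43% of all genes were called higher. The log2 fold changes of *Hnf4a*, *Elf3* and *Nr1i2* were then 2.25, 1.99 and 2.46 (adjusted p = 0.0857, 0.0810 and 0.0568, edgeR), next to 2.26, 1.93 and 2.03 with all mice.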

How the data were processed

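Per the labels, full-length cDNA of total colon RNA from 9 mice was PCR-amplified and read by Nanopore sequencing (PromethION). The authors deposited whole-number read counts per gene and mouse, without normalization. The submitters' processing notes name the build mm10, and the aligner, counting tool, annotation and use of strand are not given in the sources used here. Of 27733 lines, 14 without counts were skipped. PCR copies were not told apart, and the exact intervals of count ratios cover counting error only.

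Testing used edgeR 4.0.16 in R 4.3.3, with TMM factors, the filterByExpr filter by group, a prior count of 0.125 and quasi-likelihood F tests. All 9 libraries entered a single fit whose design held the group alone, and p-values were adjusted by Benjamini-Hochberg over 12566 genes. Standard errors are the log2 fold change divided by the square root of F, and intervals are 95%. DESeq2 1.42.0, other normalizations and filters, only the 2 groups compared, the replicate number as a block and each mouse left out were alternatives. Log2 CPM used a prior count of 0.5. Nothing in the sources gives litters or cages, so p-values measure the spread between these mice. Positions are from GENCODE M21 (GRCm38, the assembly of mm10), promoters from RefSeq, and Python 3.11.15, pandas 2.3.3 and matplotlib 3.10.9 were used. All 9 identifiers matched.

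The members and gene lists were chosen with earlier results of these data known. All 9 members are named, and from each other list up to 4 genes with the smallest P in the comparison described, the exceptions being marked. A few genes of the lists are counted but not reported here by name.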

Additional observations from a re-analysis of the deposited data

How the results depend on the processing

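The number of factors called lower with DSS, 6 as reported, lay between 5 and 7 under another normalization, filter, tool or set of groups and between 4 and 7 with 1 mouse left out. The number called higher in DSS + EA against DSS, 4 as reported, lay between 3 and 6 and between 4 and 7, genes outside the 4 being among those counted. The DEG rule left 1 in each. When both DSS + EA mice rich in pancreatic enzymes were left out, 1 remained called in DSS + EA against DSS. In DSS + EA against control, 0 were called with any 1 mouse left out, and 2 when only these groups were fitted (10.1% of all genes, against 3.64%), a fit that does not share the spread of the DSS mice. Relative to the epithelial markers, leaving out 1 mouse gave 4 to 6, 5 to 7 and 2 to 5 factors without overlap in the 3 comparisons. The log2 ratio of *Hnf4a* to *Hnf4g* between DSS and control was 0.40 with a prior count of 2, the *Hnf4g* counts being at most 3 in the DSS mice. With 1 mouse left out, *Klf4* lay between -0.864 and 0.386 with DSS (0 without control mouse 1, 0.386 without DSS mouse 3) and between -0.993 and 0.256 in DSS + EA against DSS (0.256 without DSS mouse 2). In DSS + EA against control, *Hnf4a* was -0.014 with a mean of at least 20 counts and lay between -0.021 and 0.09 with 1 mouse left out, and *Klf5* lay between -0.053 and 0.337. Without both pancreas-rich mice, *Cdx1* was -0.17 and *Nr1i2* 0.20 in that comparison. The cause of these changes was not tested. With a replicate block, 6, 5 and 0 factors were called in the 3 comparisons, *Klf5* being added in DSS + EA against DSS (1.33, adjusted p = 0.0445, edgeR), and no other call changed. Same-numbered mice are different animals, and their deviations correlated at between -0.15 and 0.09, so the numbers do not pair them. Other scalings moved the median of all genes by at most 0.08 on the log2 scale. DESeq2 called 12 of the HNF4 and CDX targets higher in DSS + EA against DSS, against 8, and 1 and 0 receptor partners in the comparisons where edgeR called 2. Leaving out the genes with a mean under 20 counts removed *Hnf4g* from the test. In DSS + EA against DSS it was also not tested when only these groups were fitted. Each of these settings called 3 factors in that comparison.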
